A study of Mus musculus with 4 samples.

Results

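Neutrophils that carried more RNA of an inflammatory gene trio than of granule genes made up 1372 of the 14198 passing barcodes (9.66%) of mouse colon tumours, and 71.9% of the 1909 neutrophil barcodes (95% exact binomial interval 69.8 to 73.9%). A barcode marks 1 droplet and, in most cases, 1 cell. It passed with at least 500 UMIs (tags that mark single captured mRNA molecules), 200 genes and at most 20% mitochondrial UMIs. A neutrophil barcode held at least 1% of its UMIs in S100a8 and S100a9, the subunits of calprotectin, and no UMI of C1qa, C1qb or C1qc (macrophages), Cd3e (T cells) or Epcam (epithelium). The members were chosen by measured values: a neutrophil barcode was taken when its UMIs of Hcar2, Il1f9 and Acod1, called the activation genes below, outnumbered those of Ngp, Camp, Ltf and Retnlg, the granule genes. The other 537 neutrophil barcodes are the remaining neutrophils: 490 with more granule-gene UMIs and 47 with equal numbers.

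The tumours were raised in female C57BL/6 mice with 12.5 mg/kg azoxymethane (AOM), a colon carcinogen, and 3 cycles of dextran sulphate sodium (DSS), which injures the colon lining. They were taken 30 days after the last DSS. The 4 labelled samples are CD45+ (immune) and CD45- (non-immune) cells from Egfr fl/fl mice, whose Egfr carries loxP sites, and from Egfr{delta}MYL mice, which lack Egfr in the myeloid lineage. All groups received AOM and DSS and no untreated tissue is included. The labels name neither the Cre driver nor the number of animals, and CD45+ neutrophils belong to the immune sort. Barcodes came as 1 matrix with 4 suffixes, called libraries 1 to 4. No source used here pairs them with the samples, so genotypes and sorts cannot be compared, there are no replicates, and each library's value stands alone.

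Neutrophils are short-lived white cells that leave the bone marrow loaded with granules. Transcripts of granule proteins are made early and fade as the cells age and enter tissue, where microbial products, cytokines and low oxygen switch on cytokine and survival genes. Acod1 encodes the enzyme that makes itaconate, a metabolite with antimicrobial and immune-regulating actions, Hcar2 a receptor for niacin and β-hydroxybutyrate, and Il1f9 the IL-1 family cytokine IL-36γ.

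The members came from every library: 37 in library 1, 147 in library 2, 265 in library 3 and 923 in library 4. Their share of neutrophil barcodes was 52.9% in library 1, 69.3% in library 2, 65.9% in library 3 and 75.3% in library 4. The interval was widest in library 1, from 40.6 to 64.9%. Passing barcodes had a median of 4940 UMIs, members 2816 and remaining neutrophils 3405. Library 2 was shallow in both neutrophil groups (medians of 1375 and 1368 UMIs). Libraries 1 and 2 stood apart from 3 and 4. In barcodes that are not neutrophils, epithelial markers summed to 8608 and 6719 CPM in libraries 1 and 2 and to 52.04 and 97.1 CPM in libraries 3 and 4, and T cell markers to 60.5 and 33.6 against 1008 and 554 CPM. Erythroid markers were at 93536 and 10055 against 11.1 and 220 CPM. Of all barcodes 40.99, 43.7, 91.3 and 95.5% passed in libraries 1 to 4. Libraries 3 and 4 alone gave 442 genes higher and 148 lower in the comparison with the remaining neutrophils below, beside 445 and 149 with all libraries. Of the barcode sequences, 24 occurred under more than 1 suffix, and 5 members were among those.

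The rule drew a line through a continuum. The median member had 21 activation-gene and 2 granule-gene UMIs, and the median remaining neutrophil 14 and 37. Of the members, 72 lay 1 or 2 UMIs above the line (median depth 1670 UMIs), and 49 remaining neutrophils lay 1 or 2 below it (median depth 2153). Retnlg (resistin-like gamma) was still seen in 922 members, and 419 members had no granule-gene UMI. Acod1 was seen in 1343 members and in 494 of the 537 remaining neutrophils. All 3 activation genes were seen in 771 members. Another 676 barcodes met every limit except that they held C1q UMIs, 312 of them exactly 1, and they are not members. The calprotectin limit had 85 members with 1 to 2% of UMIs in S100a8 and S100a9, and 52 barcodes with 0.5 to 1% that met the other limits.

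**Figure D1:**
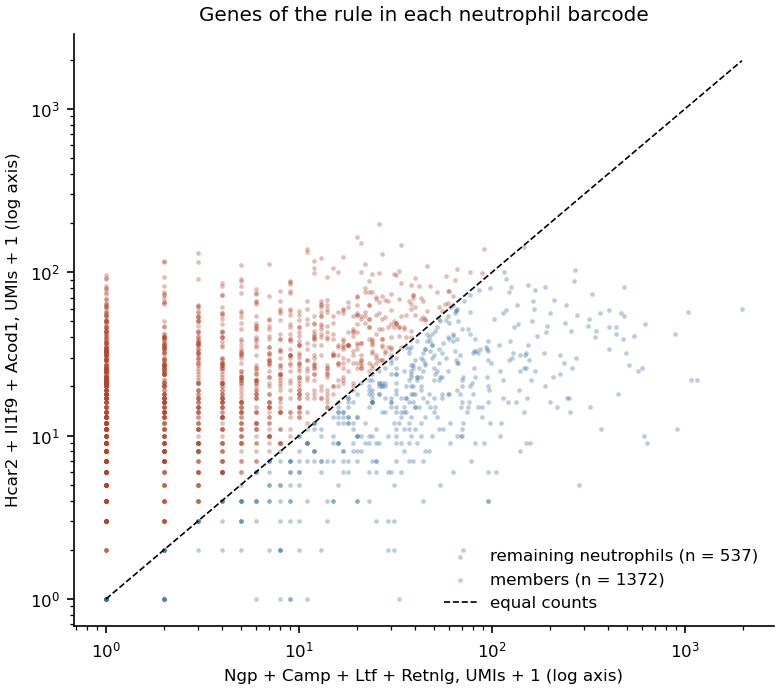
Each point is 1 of the 1909 neutrophil barcodes, placed by its UMIs of the granule genes (horizontal, plus 1, log axis) and of the activation genes (vertical, plus 1, log axis), with equal counts dashed. The 1372 members lie above the line and the 537 remaining neutrophils on or below it, with no gap between them; 419 members sit at 0 granule UMIs.

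The levels of the genes in the rule are descriptions of the choice. As UMIs per 1000000 summed UMIs (counts scaled so, CPM), Acod1 stood at 4933, 5073, 6055 and 6262 in the members of libraries 1 to 4, and at 3386, 3322, 3111 and 3705 in the remaining neutrophils. Every library's members were thus higher, and every library's remaining neutrophils still held Acod1 well above the 20.8 CPM of B cell barcodes. Over all libraries Hcar2 was at 1910 against 746 CPM and Il1f9 at 935 against 479 CPM. Retnlg was at 2017 against 15980 CPM. Thinned to 1000 UMIs per barcode (114 shallower members left out), Acod1 was seen in 94.9% of members, Hcar2 in 66.8% and Il1f9 in 44.99%; unthinned, the shares were 97.9, 82.1 and 66.4%. In B cell barcodes, which should lack them, the thinned shares were 1.39, 0.244 and 0.244%, at a median depth before thinning of 4144 UMIs. These shares follow from the rule and are given as a description.

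The barcodes bore the marks of neutrophils. Against all other passing barcodes, the genes with the highest ratios included Cxcr2, the receptor for neutrophil-attracting chemokines (410 against 28.4 CPM, log2 ratio 3.85), Csf3r, the G-CSF receptor (782 against 60.8 CPM, 3.69), Fpr1, a receptor for bacterial peptides (301 against 24.1 CPM, 3.64), and Hdc, which makes histamine (2234 against 165 CPM, 3.76). Ribosomal protein genes took 3.51% of UMIs in members and 16.6% in barcodes that are not neutrophils. The label names G0s2, an inhibitor of fat breakdown, as a marker. G0s2 separated the members from all other barcodes (8000 against 528 CPM, log2 ratio 3.92) and did not separate the members from the remaining neutrophils, where it was at 8806 CPM (log2 ratio -0.14, counting interval -0.16 to -0.11). Egfr itself gave 1 UMI in all members and 1 in the remaining neutrophils.

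Of 15558 genes with at least 20 UMIs in the higher group, 920 (5.91%) were at least 2-fold higher in the members than in all other barcodes and 9286 (59.7%) at least 2-fold lower, 65.6% in all, with a median log2 ratio of -1.46. The other barcodes held more UMIs (117283363 against 4290234), so lower genes were counted from a lower CPM than higher ones. Some genes were close to absent from the members. Slc12a2, an ion transporter of epithelium, had 1 UMI in the members (log2 ratio -7.80, interval -13.11 to -5.32). Phgdh, the first enzyme of serine synthesis, had 1 UMI (-7.24) and the gene of the lymphocyte transcription factor Tcf7 had 4, all in 1 barcode (-5.63). All 10 proliferation genes were at least 2-fold lower than in the other barcodes.

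The comparison with the remaining neutrophils asks what went along with the activation genes inside one cell type. It splits barcodes by measured RNA, so its ratios are descriptions without tests, and the intervals given cover counting error only. Among 6010 genes, 445 (7.4%) reached 2-fold in the direction of the members and 149 (2.48%) in the other, 9.88% in all. In libraries 2, 3 and 4, the ones with at least 50 barcodes in both groups, 142 of the 445 and 76 of the 149 kept their direction. The median gene stood at a log2 ratio of 0.17. Calprotectin took 12.3% of the members' UMIs and 22.3% of the remaining neutrophils'. With the genes of the rule left out of the totals every log2 ratio falls by 0.20, the median becomes -0.04, and the split is 278 higher and 243 lower.

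Many cytokine genes were higher in the members. Of 16 cytokine and growth factor genes with enough UMIs, 8 reached 2-fold towards the members and 1 was lower, beside 7.4% and 2.48% of all genes. Their median log2 ratio was 1.12 beside 0.17 for all genes. The median was 0.49, 1.12 and 1.07 in libraries 2, 3 and 4. Tnf, which encodes tumour necrosis factor, was at 1269, 692, 857 and 1196 CPM in the members of libraries 1 to 4 and at 356, 306, 226 and 317 CPM in the remaining neutrophils. The 2 sets of libraries did not overlap (pooled 1098 against 285 CPM, log2 ratio 1.94, interval 1.83 to 2.07). Tnf, Il23a and Csf1 are named genes, which were kept only with the same direction in libraries 2, 3 and 4. Their separation between libraries is in part a result of that choice, and the share of all genes without overlap was not counted.

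Il23a encodes the IL-23 subunit p19, part of a cytokine that sustains IL-17-producing lymphocytes. It was at 138, 344, 280 and 378 CPM in members and at 43.7, 127, 27.3 and 101 CPM in remaining neutrophils (log2 ratio 2.29, interval 2.06 to 2.54). The lowest members' value lay just above the highest of the others. Il12b, its partner subunit, had no UMI in either group. Thinned, Il23a was seen in 14.8% of members (unthinned 22.4%), 3.74% of remaining neutrophils (unthinned 9.50%) and 0 of 1227 B cell barcodes, which allows up to 0.244% (3 counts).

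Csf1, the macrophage growth factor, was at 490, 784, 393 and 522 CPM in the members and at 200, 190, 132 and 191 CPM in the remaining neutrophils (log2 ratio 1.58). Its members' values again lay above all of the others. The costimulatory ligand Tnfsf9 (48.7 against 12.4 CPM, 1.98), the EGF receptor ligand Hbegf (35.9 against 11.04 CPM, 1.70) and Tgfb1 (278 against 112 CPM, 1.31) were also at least 2-fold higher. Areg, another EGF receptor ligand, showed a log2 ratio of 2.83, but 79 of its 189 UMIs in members came from 1 barcode. It was seen in 2.11% of members and 2.05% of remaining neutrophils. Oncostatin M (Osm) stood at 829 against 904 CPM and vascular growth factor Vegfa at 118 against 114 CPM. The 1 lower gene was Il10, with 12 against 24 UMIs (log2 ratio -1.92).

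IL-1 genes were abundant in both groups. Il1b took 32591 CPM in members and 23593 CPM in remaining neutrophils (log2 ratio 0.47), short of 2-fold. By library it was at 23400, 32122, 25616 and 35323 CPM in members and at 21952, 28327, 18160 and 27368 CPM in remaining neutrophils, so the groups overlapped between libraries although each library's members were higher. Il1a (2035 against 764 CPM, 1.41) and the receptor antagonist Il1rn (3245 against 1513 CPM, 1.10) were at least 2-fold higher; Il1rn was at 0.90 with the rule genes out of the totals. These were 2 of the 12 genes of the IL-1 list, beside 7.4% of all genes, a count too small to set the list apart. The list's median was 0.37 beside 0.17 for all genes. Nlrp3, the inflammasome sensor, was at 2188 against 1167 CPM (0.91), while the inflammasome parts Pycard and Gsdmd had log2 ratios of 0.08 and 0.03.

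Chemokines moved less evenly. Of 16 listed genes 4 were at least 2-fold higher and 2 lower, beside 7.4% and 2.48% of all genes. Ccl3, which attracts monocytes and lymphocytes, was at 4808 against 2083 CPM (log2 ratio 1.21) and Cxcl1, which draws neutrophils, at 336 against 139 CPM (1.28). Cxcl2, a CXCR2 ligand and the chemokine with the highest level here, was at 51525 against 31772 CPM (0.70). Ccl5, a T cell chemokine, was lower at 14.2 against 118 CPM (-3.06), and Ccl22, typical of dendritic cells, at 6.29 against 27.8 CPM (-2.14). Dendritic cell markers too summed to 19.3 CPM in members and 86.6 CPM in remaining neutrophils, where 1 barcode held 109 of their UMIs. The part of such barcodes in these 2 ratios was not tested. Cxcr4, the marrow-retention receptor, was at 568 against 309 CPM (0.88), and Cxcr2 at 410 against 458 CPM (-0.16).

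**Figure D2:**
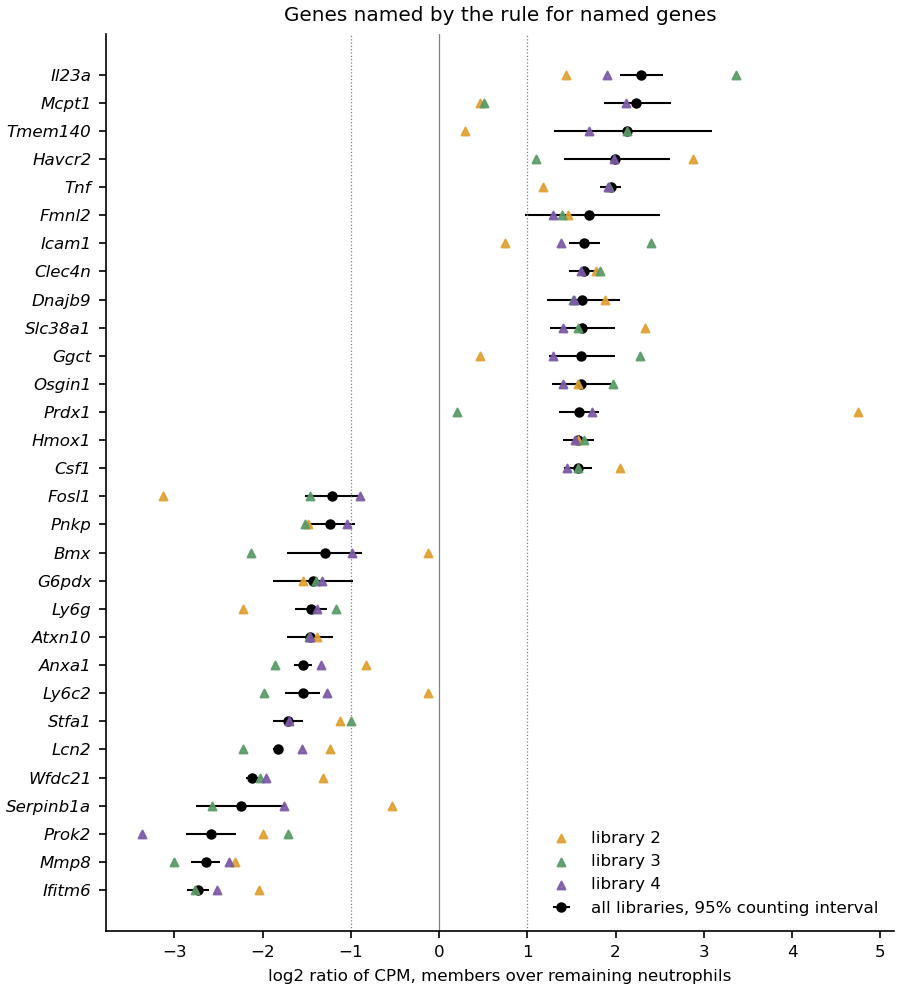
Log2 ratio of CPM, members over remaining neutrophils, for the 15 genes with the highest and the 15 with the lowest ratio by the rule for named genes. Black points pool all libraries with 95% counting intervals, triangles are libraries 2 to 4, and dotted lines mark 2-fold; Il23a is highest at 2.29 and Ifitm6 lowest at -2.73, while Prdx1 spans 0.21 to 4.75 between libraries.

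Surface genes were also among those with the highest ratios. Icam1, an adhesion molecule, was at 419 against 134 CPM (log2 ratio 1.65), Clec4n (Dectin-2, a fungal sugar receptor) at 451 against 144 CPM (1.64), and Havcr2 (the checkpoint receptor TIM-3) at 49.2 against 12.4 CPM (1.99). Cd274, which encodes the checkpoint ligand PD-L1, was seen in 69.0% of members and was at 891 against 413 CPM (1.11). Cd274 was under 2-fold (0.91) with the rule genes out of the totals. B cell barcodes held a Cd274 UMI in 25.1% of cases, or in 8.15% when thinned beside 48.3% of thinned members. Clec4n was at least 2-fold higher in each of libraries 2, 3 and 4, with 1.78, 1.82 and 1.60.

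Mcpt1, a mast cell protease gene, also ranked high (log2 ratio 2.23), yet 391 of its 588 UMIs lay in 1 barcode; without the top barcode of each group the ratio was 1.00. Likewise 5843 of 6573 UMIs of the antibody light chain gene Iglc1 and 6125 of 9174 of the heavy chain gene Igha came from 1 member barcode. Among all 445 genes called higher, 17 drew over 50% of their members' UMIs from 1 barcode. Of the 149 called lower, 19 drew over 50% of the remaining neutrophils' UMIs from 1 barcode. Members with at least 2 UMIs of T, B, plasma, epithelial, dendritic, mast or stromal markers numbered 599 (43.7%), beside 40.8% of remaining neutrophils. Macrophage markers summed to 526 CPM in members and 351 CPM in remaining neutrophils (all 7 seen, 2 or more UMIs in 32.5 and 30.5% of barcodes), and monocyte markers to 548 and 601 CPM. Single genes among them were higher in the members, such as Apoe (0.77), Cd68 (0.58), Ccr2 (0.89) and Fn1 (0.88). The part of these markers in the differences was not tested. Without the barcodes of the first tally, 151 of the 445 higher and 60 of the 149 lower genes were called again, Il23a (2.61), Tnf (1.81) and Csf1 (1.61) among them.

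Genes of redox defence were higher in part. Of 18 genes of the NADPH oxidase and antioxidant list, 4 were at least 2-fold higher and none lower (median 0.44), beside 7.4% and 2.48% of all genes. Hmox1, which breaks down haem, was at 398 against 133 CPM (log2 ratio 1.58), the peroxidase gene Prdx1 at 241 against 80.4 CPM (1.58) and Nqo1, a quinone reductase, at 16.3 against 2.65 CPM (2.62). Prdx1 was seen in 15% of members and 14% of remaining neutrophils, so its excess lay in few barcodes with many copies. The oxidase subunit Cybb was at 101 against 177 CPM (-0.81). The growth-and-death regulator Osgin1 was at 117 against 38.4 CPM (1.61).

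NF-kB is the transcription factor through which TNF and bacterial products act. Of 19 NF-kB target and feedback genes, 18 had a log2 ratio above 0, beside 65.8% of all genes tested, and the median was 0.49. Only Icam1 and Tnip3 (1.54) reached 2-fold, a count of 2 beside 7.4% of all genes, so by that count the list was close to the background. Nfkbia, its inhibitor, was at 7242 against 4118 CPM (0.81). All 16 survival and cell death genes lay above 0 with a median of 0.47, and 1 reached 2-fold, near the share of all genes. That gene, Bcl2a1a, was at 264 against 99.8 CPM (1.40), though its near-identical copies Bcl2a1b and Bcl2a1d make the assignment of its reads uncertain. The list of genes reported for tumour neutrophils had 6 of 16 at least 2-fold higher (median 0.73), with the cathepsin gene Ctsb (1.19) and the protease inhibitor gene Cstb (1.23) beside Csf1, Ccl3, Cd274 and Jun.

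Of 17 immediate early and heat shock genes, known to respond to tissue digestion, 4 were at least 2-fold higher, among them Atf3 (1.36), Jun (1.17) and Egr1 (1.17), with a median of 0.41, beside 7.4% and 0.17 for all genes. Fos was at 553 against 951 CPM (-0.78) and Hspa1a at 50.3 against 90.1 CPM (-0.84). The part of digestion in the other differences was not tested.

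Of glycolysis, none of 19 genes reached 2-fold and their median was -0.01. Of 14 hypoxia genes 1 did, Ankrd37 (1.57), a share near the 7.4% of all genes, and Hif1a was at 372 against 382 CPM. Among 13 genes of lipid handling, Acsl1, which activates fatty acids, was higher (1.12), and the leukotriene enzyme gene Alox5 (-1.14) and the fatty acid carrier Fabp5 (-1.02) were lower. Arg1, which degrades arginine, was lower at 28.7 against 114 CPM (-1.99). Class II antigen presentation genes were at or under the level of the remaining neutrophils (H2-Aa -0.26, Cd74 -0.25). Interferon-responsive genes had a median of 0.45 with Gbp2 (1.47), Gbp5 (1.32) and Ifit2 (1.17, from 34 UMIs) past 2-fold. That list's median was 0.09 in library 2, 0.90 in library 3 and 0.09 in library 4. The proliferation list (median 1.22 over 5 genes) rested on 22 to 88 UMIs a gene.

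**Figure D3:**
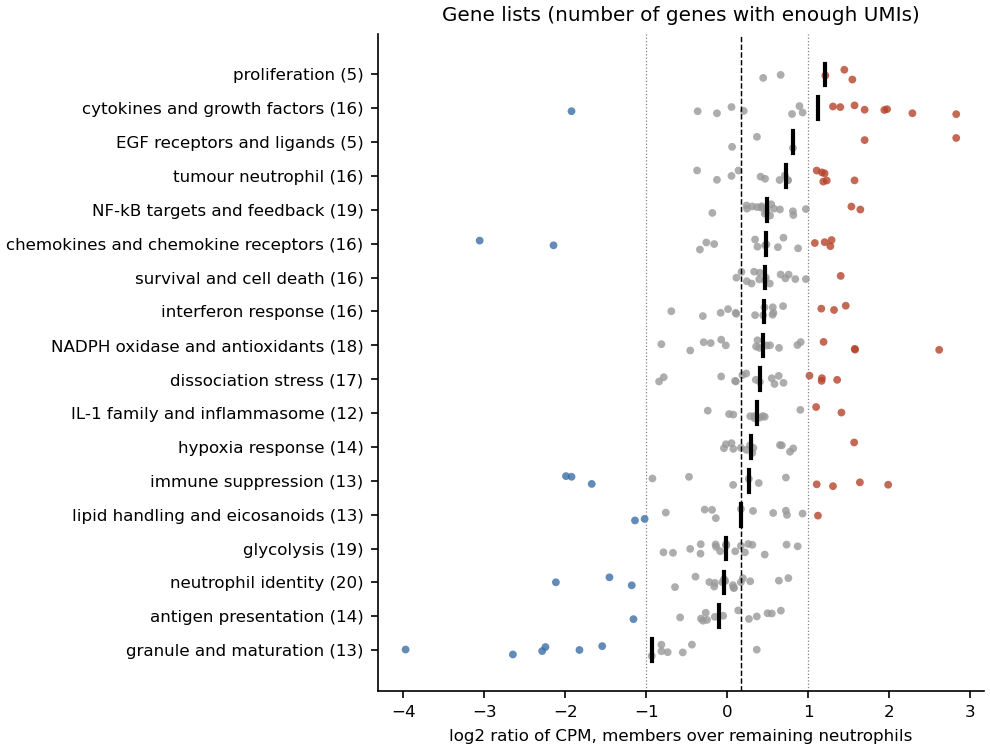
Each point is a gene of 1 of 18 lists, placed by its log2 ratio of CPM, members over remaining neutrophils; red points are at least 2-fold higher, blue at least 2-fold lower, black bars the list medians and the dashed line the median of all 6010 genes (0.17). Cytokines (1.12) lie to the right and granule genes (-0.93) to the left, while glycolysis (-0.01) and neutrophil identity genes (-0.03) sit near the middle.

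Granule and maturation genes lay on the other side. The 4 granule genes of the rule are left out here. The others are genes of the same kind, so their lower levels go in part with the choice of the members. They are given as a description and not as an independent result. Of 13 others with enough UMIs, 6 were at least 2-fold lower in members, none were higher and the median was -0.93, beside 2.48% of all genes lower. Lcn2, which encodes the iron-siderophore binding granule protein lipocalin-2, was at 1221, 784, 1076 and 998 CPM in the members of libraries 1 to 4 and at 1887, 1846, 5004 and 2934 CPM in the remaining neutrophils. Every library's remaining neutrophils lay above every library's members (log2 ratio -1.82, interval -1.88 to -1.77). Lcn2 and Mmp8 are named genes too, kept only with the same direction in libraries 2, 3 and 4, so this separation is in part a result of that choice.

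Mmp8, the neutrophil collagenase, was at 48.3, 33.9, 89.5 and 93.0 CPM in members and 394, 169, 716 and 483 CPM in the others (log2 ratio -2.65), again without overlap. The surface protein gene Cd177 (27.7 against 135 CPM, -2.28), the integrin gene Itgb2l (1.63 against 25.6 CPM, -3.97) and the protease inhibitor gene Serpinb1a (11.2 against 53.0 CPM, -2.24) followed. Anxa1, whose protein limits neutrophil recruitment, was at 317 against 923 CPM (-1.54). Mpo, Elane and Ctsg, genes of primary granules made in the marrow, had no UMI in either group. Prtn3, another such gene, had 14 UMIs in members and 12 in remaining neutrophils, too few to be counted.

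Other genes with the lowest ratios were Ifitm6 (151 against 999 CPM, log2 ratio -2.73), Prok2, which encodes prokineticin 2 (31.2 against 187 CPM, -2.58), Wfdc21 (606 against 2625 CPM, -2.12) and the myeloid surface gene Ly6c2 (78.6 against 229 CPM, -1.55). Ly6g, the mouse neutrophil surface marker, was at 102 against 278 CPM (-1.45) and was seen in 14.4% of members and 37.2% of remaining neutrophils. General neutrophil genes were mixed. Csf3r was at 782 against 744 CPM (0.07) and Trem1 at 1335 against 1257 CPM (0.09). Clec4e was higher (0.76, short of 2-fold), while Mmp9 (-0.64) and Fpr1 (-0.39) were lower, also short of 2-fold. Of 20 identity genes 8 lay above 0, and the median was -0.03. At least 2-fold lower were 3 (Ly6g, Wfdc21 and Pglyrp1) and none were higher, beside 2.48% and 7.4% of all genes.

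The same genes were followed along the variable of the rule itself, as a description. The 1815 neutrophil barcodes with at least 5 UMIs of the 7 genes were placed in 6 bins by the activation genes' share of those UMIs, from 63 barcodes under 10% to 616 at 90% or more; the genes followed were picked after they were seen to differ across the line. Tnf was at 110, 211, 364, 595, 942 and 1513 CPM from the lowest bin to the highest. Csf1 was at 30.4, 126, 229, 302, 392 and 655 CPM, and Il23a at 2.34, 45.01, 115, 209, 338 and 428 CPM. The lowest Il23a value was 1 UMI in 63 barcodes (interval 0.06 to 13.04 CPM). Each step was upward for Tnf, Csf1 and Il23a, within the remaining neutrophils as well as within the members.

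Mmp8 ran the other way, at 1395, 547, 199, 171, 104 and 37.4 CPM, and Wfdc21 fell from 5535 to 341 CPM. Lcn2 fell from 8598 to 981 CPM by the fifth bin and was at 947 CPM in the sixth. Ly6g fell from 475 to 77.5 CPM with 1 step back in the middle. G0s2 stayed between 7202 and 9312 CPM and Cxcr2 between 368 and 501 CPM without an order. Median depth fell along the bins from 5645 to 2786 UMIs, and its part was not tested.

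**Figure D4:**
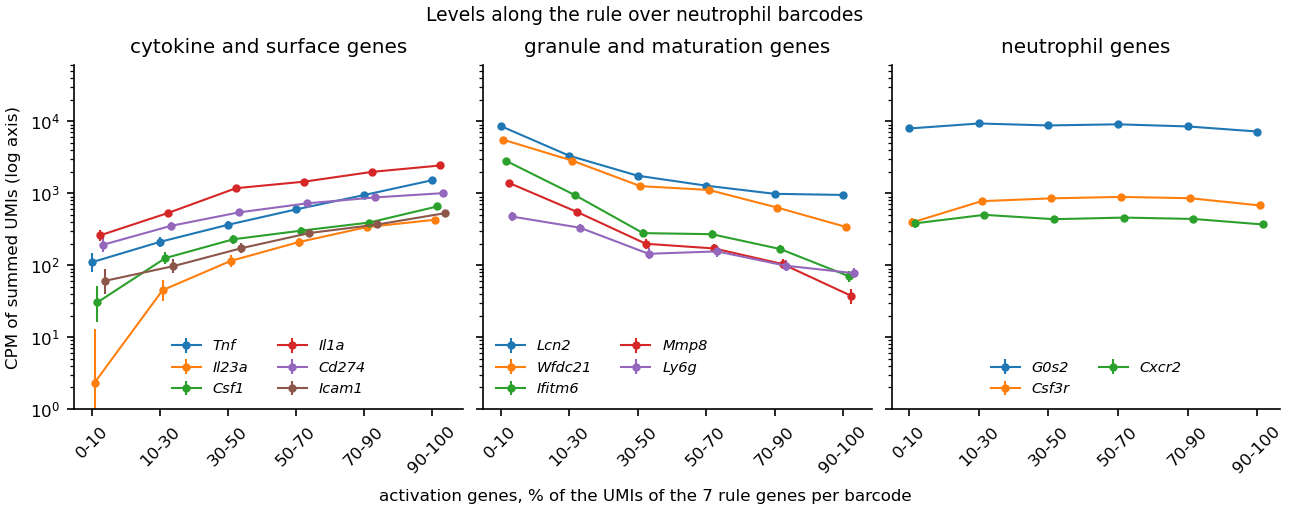
CPM of summed UMIs (log axis, bars are 95% Poisson intervals) in 6 bins of neutrophil barcodes by the activation genes' share of the UMIs of the 7 rule genes. Tnf climbs from 110 to 1513 CPM and Mmp8 falls from 1395 to 37.4 CPM, while G0s2, Csf3r and Cxcr2 show no steady course.

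The members differed among themselves. In 1258 of them thinned to 1000 UMIs, the 20 genes with the highest Fano factor (variance over mean, 1 for random sampling of an even level) began with Iglc1, Igha, Mcpt2 and Mcpt1, each owing it to 1 barcode: Iglc1 went from 136 to 3.21 without it. Ftl1, which encodes the ferritin light chain that stores iron, had 43.8 and kept 41.9. Its 10th percentile over members was 1 UMI per 1000, its median 5 and its 90th percentile 23. Hspa1b, a heat shock gene, came next (41.7, or 7.73 without its top barcode), then Ccl4 (31.7), Cxcl2 (29.8), Gm42418 (26.9) and the ferritin heavy chain gene Fth1 (24.2) among genes outside the rule. Ccl4 had no UMI in most thinned members (seen in 34.7%) and 16 at the 90th percentile.

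Over these barcodes, which share libraries and a fixed depth, log2 counts (plus 1) of Cxcl2 went with those of Il1b (Pearson r 0.51) and Ccl3 with Ccl4 (0.45), while Ftl1 ran against Il1b (-0.55). These correlations describe barcodes and carry no test. Gm42418 overlaps ribosomal RNA repeats.

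The Ftl1 contrast was followed further, after these values were seen. The 275 members above the 80th percentile (10.2 Ftl1 UMIs per 1000) were set against the 686 at or below the median (5.06). They made up 21.6, 23.1, 15.5 and 20.8% of the members of libraries 1 to 4, so no library stood apart. Median depth was 2964 UMIs in the rich and 2754 in the poor set. Among the remaining neutrophils 5.77% exceeded the same limit. Among 4375 genes, 365 (8.34%) reached 2-fold towards the Ftl1-rich members and 570 (13%) lower.

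The genes described next were picked after their values were seen, and no list was counted for them. Hmox1, which breaks down haem, was at 1352 against 102 CPM (log2 ratio 3.72; 4.78, 3.87 and 3.59 in libraries 2, 3 and 4) and was seen in 57.1% of rich and 13.7% of poor members. Gclm, a subunit of the enzyme that starts glutathione synthesis, was at 265 against 22.0 CPM (3.59), Nqo1 at 72.2 against 1.91 CPM (5.24), Blvrb (biliverdin reductase B) at 173 against 19.1 CPM (3.18) and the iron exporter gene Slc40a1 at 182 against 40.1 CPM (2.18). Prdx1 was at 849 against 88.4 CPM (3.26).

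Lipa, the gene of the lysosomal acid lipase, was at 228 against 23.4 CPM (3.28), the cathepsin genes Ctsd at 1358 against 254 CPM (2.42) and Ctsb at 1400 against 305 CPM (2.20). Gdf15, a stress-induced cytokine gene with the highest ratio (5.85), came from 6.18% of the rich members. The ferritin copy Ftl1-ps1 (3.34) cannot be told apart from Ftl1 with certainty in short reads.

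Inflammatory genes did not move as a block. Il1b was lower in the Ftl1-rich members, at 22206 against 35449 CPM (log2 ratio -0.67), and was seen in 87.6% of rich and 100% of poor members. The neutrophil genes Cxcr2 (230 against 482 CPM, -1.07) and Csf3r (566 against 861 CPM, -0.60) were lower as well. Tnf (1897 against 718 CPM, 1.40) and Ccl3 (7506 against 3486 CPM, 1.11) were higher, although Tnf was lower in library 2 (-0.45). Il1f9 was at 1639 against 671 CPM (1.29), Acod1 at 5797 against 6066 CPM (-0.07) and Hcar2 at 2714 against 1446 CPM (0.91). These are genes of the rule. Acod1 was seen in 90.5% of rich and 99.9% of poor members, Hcar2 in 91.3 and 78.4% and Il1f9 in 78.5 and 60.8%. Of macrophage genes, Cd68, which lysosome-rich cells share, was higher (269 against 78.8 CPM, 1.77), Csf1r was level (50.4 against 50.7 CPM) and Apoe lower (220 against 326 CPM, -0.57); their part was not tested.

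A smaller set held Cxcl10, a chemokine gene induced by interferons. A Cxcl10 UMI was seen in 222 members (16.2%), beside 10.4% of remaining neutrophils and 2.59% of B cell barcodes at median depths of 3405 and 4144 UMIs. By library it was 18.9, 9.52, 20.0 and 16.0% of members. The 222 had a median of 3039 UMIs and the other 1150 members 2776. Among 4525 genes, 132 (2.92%) reached 2-fold towards the Cxcl10-holding members and 380 (8.4%) lower. The minimum of 20 UMIs applied to the higher group, and the Cxcl10-holding set was the smaller. Lower genes were therefore counted from a lower CPM, and the 2 counts are not on equal terms.

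Several of the 15 genes with the highest ratio are known to respond to interferons, while Rnd1 (1.85), Tagap (1.56) and S100a10 (1.45) also stood among them; no list was counted. Gbp5, a GTPase gene of antimicrobial defence, was at 349 against 47.7 CPM (log2 ratio 2.87; 2.91, 2.82 and 3.0 in libraries 2, 3 and 4). Cxcl9, another interferon-induced chemokine gene (194 against 21.9 CPM, 3.15), Ifit1 (143 against 17.3 CPM, 3.05), the cytokine signal inhibitor gene Socs1 (321 against 57.1 CPM, 2.49), Irgm1 (295 against 89.98 CPM, 1.71) and Gbp2 (635 against 196 CPM, 1.69) belonged to them. Irf1, an interferon-induced transcription factor gene, was seen in 80.2% of these members and 44.6% of the others (1672 against 680 CPM, 1.30). Il1b was close to level (0.19).

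Some genes named above for the Ftl1-rich members were lower here, picked after their values were seen: Gclm at 23.5 against 84.3 CPM (-1.85), Hmox1 at 177 against 446 CPM (-1.33) and Ftl1 at 6418 against 11528 CPM (-0.84). Gclm differed little in library 3 (-0.06), as did Ftl1 (-0.05). Gadd45g (59.96 against 53.9 CPM, 0.15), another gene of the Ftl1-rich members, was not lower, and Slc7a11 was close to level (-0.02). The sets shared 24 barcodes, 8.73% of the Ftl1-rich and 10.8% of the Cxcl10-holding members.

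**Figure D5:**
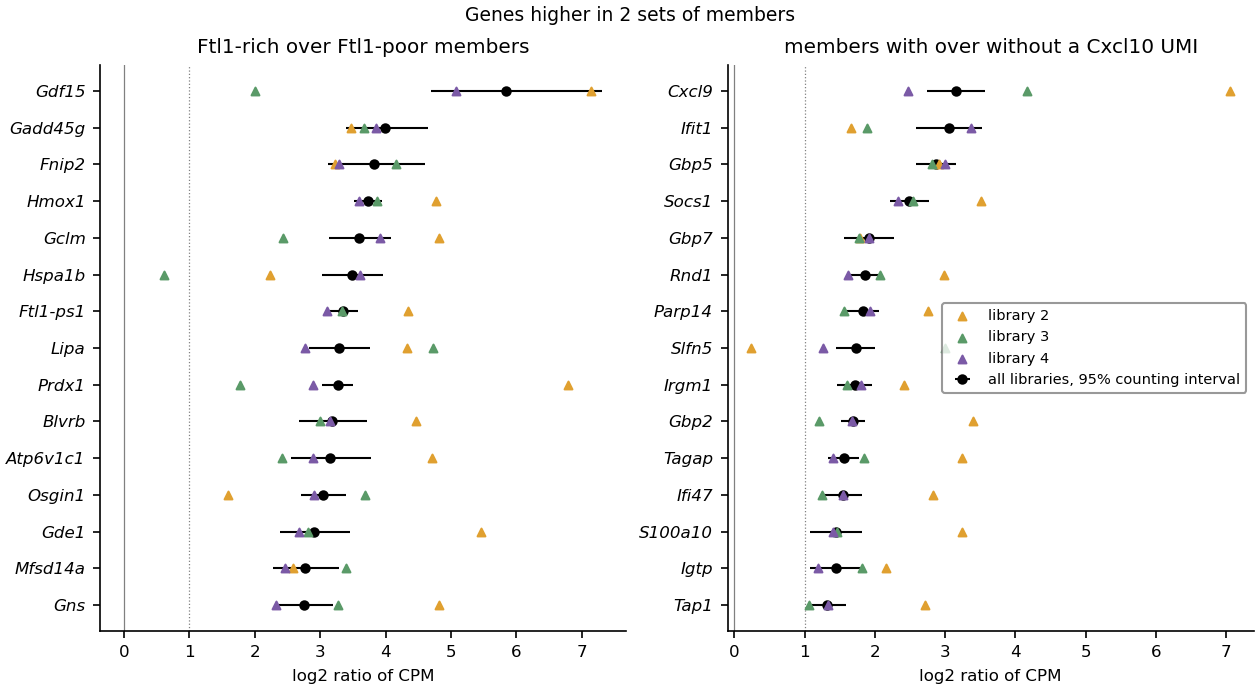
Log2 ratio of CPM for the 15 genes with the highest ratio in 275 Ftl1-rich over 686 Ftl1-poor members (left) and in 222 members with over 1150 without a Cxcl10 UMI (right). Black points pool all libraries with 95% counting intervals and triangles are libraries 2 to 4; Hmox1 (3.72) and Gbp5 (2.87) are far above the 2-fold line in each library, while Hspa1b is at 0.62 in library 3.

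Promoters of these 2 gene sets are shown for the short motif found in the largest share of each set. RefSeq windows (build GRCm38.p6) from 250 bases before to 50 after the start were matched by symbol for 11 of the 15 genes of the Ftl1-rich set and 12 of the 15 of the Cxcl10-holding set. The antioxidant response element TGACNNNGC, on either strand, was in 5 of the 11 (45.5%), in 2 of the 12 (16.7%, Slfn5 and Igtp) and in 12.5% of all 27025 windows. The interferon-stimulated response element (GAAA, any 2 bases, GAAA) was in 8 of the 12 (66.7%), in none of the 11 and in 3.49% of all windows. Other motifs also passed their share of all windows. The NF-kB motif was in 2 of the 11 and 2 of the 12, beside 8.18%. The AP-1 motif was in 2 of the 11 and 3 of the 12, beside 7.93%. The hypoxia motif ACGTG was in 2 and 1, beside 19.7%, and the C/EBP motif in none of either, beside 2.12%. The antioxidant and interferon motifs were chosen after the gene sets were seen, and a match describes letters, not binding. Capitals mark the match in each line, written 5′ to 3′ along the gene. The Gclm match starts 134 bases before the start site (chr3:122245307-122245606, plus strand) and the Prdx1 match 133 (chr4:116685349-116685648, plus strand); the latter overlaps a match to the AP-1 motif TGANTCA.
Gclm: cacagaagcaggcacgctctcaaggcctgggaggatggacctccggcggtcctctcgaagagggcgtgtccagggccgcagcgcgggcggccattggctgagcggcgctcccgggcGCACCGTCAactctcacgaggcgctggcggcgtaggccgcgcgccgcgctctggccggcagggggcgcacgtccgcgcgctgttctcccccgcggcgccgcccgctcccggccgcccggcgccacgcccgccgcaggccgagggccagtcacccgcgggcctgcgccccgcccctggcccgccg
Prdx1: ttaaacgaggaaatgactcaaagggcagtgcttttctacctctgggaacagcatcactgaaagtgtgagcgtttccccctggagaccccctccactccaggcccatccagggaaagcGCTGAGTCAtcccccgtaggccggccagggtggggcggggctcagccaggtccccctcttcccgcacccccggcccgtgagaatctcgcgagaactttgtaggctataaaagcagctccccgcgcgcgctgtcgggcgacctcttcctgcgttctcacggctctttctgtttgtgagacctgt
The Ifit1 window (chr19:34640639-34640938, plus strand) holds 2 matches, 104 and 85 bases before the start, and the Gbp2 window (chr3:142620413-142620712, plus strand) 1, at 59 bases.
Ifit1: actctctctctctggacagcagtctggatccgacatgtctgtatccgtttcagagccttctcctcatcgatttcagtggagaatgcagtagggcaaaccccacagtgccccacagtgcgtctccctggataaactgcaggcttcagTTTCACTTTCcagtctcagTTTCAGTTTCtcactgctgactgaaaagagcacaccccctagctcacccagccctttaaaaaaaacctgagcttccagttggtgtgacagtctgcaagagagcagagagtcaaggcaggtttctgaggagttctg
Gbp2: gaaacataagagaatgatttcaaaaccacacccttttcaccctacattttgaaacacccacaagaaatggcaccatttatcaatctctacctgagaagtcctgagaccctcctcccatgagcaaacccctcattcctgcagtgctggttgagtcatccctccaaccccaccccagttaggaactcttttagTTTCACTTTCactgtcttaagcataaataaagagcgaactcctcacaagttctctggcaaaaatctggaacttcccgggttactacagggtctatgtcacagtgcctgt

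Among genes named for the members against the remaining neutrophils, 11 of the 15 higher and 11 of the 15 lower had a window. The NF-kB motif was in 2 of the higher (Csf1 and Prdx1), in none of the lower and in 8.18% of all windows. TGANTCA was in 3 of the higher (Havcr2, Osgin1 and Prdx1), 1 of the lower (Prok2) and 7.93% of all. The C/EBP motif TTGCNNCAA was in none of either, beside 2.12% of all, and the hypoxia motif ACGTG was in 3 of each, beside 19.7%. Neither Acod1 nor Il1f9 held the NF-kB, AP-1 or C/EBP motif in this window, and of the 2 only Acod1 held the hypoxia motif.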

How the data were processed

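Tumours were digested and sorted on CD45 and EPCAM antibodies, and cells were captured with a 10x 3′ kit, per the labels' protocols. Whole-number UMI counts, not normalized, were deposited in 1 matrix. The submitters' processing notes name Cell Ranger 3.0.2 and mm10, and no source used here states the gene annotation. Every barcode of the deposited matrix held at least 500 UMIs.

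From these counts, UMIs were summed over barcodes of a group and scaled to 1000000 (CPM). Ratios carry no added constant, a group at 0 was set to 3 counts, and a gene was called at 2-fold with at least 20 UMIs in the higher group. Intervals are 95% (exact binomial for shares, Poisson for levels, conditional binomial for ratios) and cover counting error only. B cell barcodes (at least 3 UMIs of Cd79a and Ms4a1 together, no UMI of C1qa, C1qb, C1qc, Cd3e or Epcam, under 1% calprotectin) served as background for free RNA. Doublets were not removed by a caller, and other lineages' markers were counted instead. Scripts ran in Python 3.11.15 with numpy 2.4.6, scipy 1.17.1 and pandas 2.3.3 and were tested on simulated data.

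Named genes are the 15 highest and 15 lowest ratios among genes with at least 100 UMIs, seen in at least 5% of the higher group's barcodes and of 1 direction in libraries with at least 50 barcodes in both groups; rule, mitochondrial, ribosomal, haemoglobin, antibody and T cell receptor genes and unnamed models stayed out. Genes of 18 state lists and 11 marker lists may be named too. The Ftl1 and Cxcl10 sets used the same rule without the condition on libraries. The members and lists were chosen with earlier results of these data known. Alternatives changed the rule, the depth, the totals, the minimum, the added constant, the reference and the libraries. Results for some listed genes are not reported here.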

Additional observations from a re-analysis of the deposited data

How the results depend on the processing

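Both neutrophil groups occurred in every library, and ratios within libraries 2, 3 and 4 were computed. No paired test was made, as libraries cannot be matched to samples and each labelled group has 1 sample. Pooled ratios mix libraries in unlike shares. Library 3 held 961253 of the members' 4290234 UMIs and 843881 of the remaining neutrophils' 2264085. The pooled ratio of Fmnl2 (1.70) lay above its values in libraries 2, 3 and 4 (1.46, 1.40 and 1.29). The members' share of neutrophil barcodes (71.9%) was 68.1% with a margin of 3 UMIs. It was 67.6% without Hcar2 in the rule, 42.7% without Acod1 and 67.5% after thinning. In this section, passing barcodes with at least 1000 UMIs were thinned to 1000 and the rule was applied anew. That gave 1487 members among 2202 neutrophil barcodes, beside 1372 among 1909, so the thinned results do not describe the same barcodes. Leaving out 1 library in turn gave 65.6 to 73.5%, the lowest without library 4. Against the remaining neutrophils the counts of genes at least 2-fold higher and lower (445 and 149) were 276 and 232 without Acod1 in the rule, 247 and 57 after thinning, 75 and 51 with 10 CPM added, 1269 and 784 without a minimum, 127 and 43 with at least 100 UMIs, and 278 and 243 with the rule genes out of the totals. They ranged from 375 to 439 and from 105 to 159 with 1 library left out; without library 4, 136 of the 445 and 76 of the 149 were called again, and after thinning 87 and 32. Without Acod1 in the rule, 183 of the 445 and 103 of the 149 were called again, and the proliferation median turned from 1.22 to -0.85. Against all other barcodes (920 and 9286) the counts moved to 1560 higher with barcodes weighted equally, 1677 higher without a minimum and 3486 lower with 10 CPM added. With 1 library left out they ranged from 846 to 910 and from 7985 to 9112. Of 37 single-gene ratios over 19 settings, only those of Csf3r and G0s2, neither past 2-fold, changed sign. Of 18 list medians 6 had the other sign in 1 or more settings: proliferation, and antigen presentation (-0.37 to 0.29), lipid handling (-0.11 to 0.47), glycolysis (-0.21 to 0.14), neutrophil identity (-0.24 to 0.03) and interferon response (-0.01 to 0.83). Mcpt1 fell under 2-fold in 3 settings, Cd274 in 4 and Il1rn in 3; Tnf, Il23a, Csf1, Icam1, Lcn2 and Mmp8 did so in none. The settings with only libraries 3 and 4, and without each gene's top barcode, were chosen after the data were seen. Depth limits the genes with few UMIs: library 1 holds 37 members.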
